A study of Rattus norvegicus with 132 samples.

Results

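The genes described here are those that carry dietary fat through the absorptive cell of the intestine. The list named 10 of them: Npc1l1, Cd36, Fabp1, Fabp2, Dgat1, Mttp, Apob, Apoa1, Apoa4 and Apoc3. Members were the rows with these symbols in the deposited tables of read counts per gene; 9 of the 10 had such a row among 21837 genes, and Cd36 had none under its symbol, so it is not analysed here. The 132 libraries came from colon or jejunum epithelium of Sprague Dawley rats, 6 libraries in each of 22 groups (11 per tissue). The irradiated rats received abdominal irradiation in 5 fractions of 4 Gy and were sampled at day 4 or day 7. Among them were rats given oral compound Kushen powder (called a pill in part of the labels), rats given oral vehicle, which was water, and irradiated rats with no drug. Further irradiated rats received compound Kushen injection into the peritoneal cavity, or its vehicle of 25 mM HEPES with 0.25% Tween-80. The only rats that were not irradiated were the untreated ones, so every drug and vehicle group shares the irradiation. Kushen is the Chinese name of the root of Sophora flavescens, a medicinal plant. The study set each preparation against its vehicle, and irradiated against non-irradiated tissue.

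In the fed intestine, Npc1l1 takes cholesterol up at the brush border, and the fatty acid binding proteins Fabp1 and Fabp2 hold fatty acids in the cytosol. Dgat1 makes the last acyl transfer to triglyceride. The microsomal transfer protein Mttp loads lipid onto the large scaffold protein Apob, and the particle that leaves the cell as a chylomicron also carries the smaller exchangeable apolipoproteins Apoa1, Apoa4 and Apoc3. Absorption of fat takes place mainly in the proximal small intestine, and the colon makes hardly any chylomicrons.

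RefSeq's promoter table for the rat build GRCr8 held an entry for 4 of the 9 members, and the 250 bases before each annotated start are printed because each of these genes was called changed by irradiation in a comparison that follows: Apoa4 and Npc1l1 in the jejunum, and Fabp1, Fabp2 and Npc1l1 in the colon. They lie at chr8:55435529-55435778 (plus strand), chr4:104749090-104749339 (plus), chr2:213724379-213724628 (plus) and chr14:85305051-85305300 (minus), each written 5′ to 3′ on the strand of its gene. Capitals mark matches to the searched motifs, AGGTCA in Fabp1, where it lies on the other strand and reads TGACCT, and AGATAA in Fabp2, once on each strand.
Apoa4: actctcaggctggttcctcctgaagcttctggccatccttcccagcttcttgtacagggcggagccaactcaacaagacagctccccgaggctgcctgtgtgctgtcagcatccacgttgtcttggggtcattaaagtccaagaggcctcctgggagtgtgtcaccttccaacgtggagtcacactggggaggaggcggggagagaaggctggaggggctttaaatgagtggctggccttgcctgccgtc
Fabp1: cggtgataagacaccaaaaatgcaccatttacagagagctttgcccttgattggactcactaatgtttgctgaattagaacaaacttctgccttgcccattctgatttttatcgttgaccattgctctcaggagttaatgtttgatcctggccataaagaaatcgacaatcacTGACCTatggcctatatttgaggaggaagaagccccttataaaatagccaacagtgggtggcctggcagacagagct
Fabp2: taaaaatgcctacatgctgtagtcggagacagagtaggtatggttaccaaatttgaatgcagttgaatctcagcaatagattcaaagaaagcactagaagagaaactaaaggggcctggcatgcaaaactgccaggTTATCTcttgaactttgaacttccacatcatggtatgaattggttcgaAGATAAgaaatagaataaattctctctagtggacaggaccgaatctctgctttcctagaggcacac
Npc1l1: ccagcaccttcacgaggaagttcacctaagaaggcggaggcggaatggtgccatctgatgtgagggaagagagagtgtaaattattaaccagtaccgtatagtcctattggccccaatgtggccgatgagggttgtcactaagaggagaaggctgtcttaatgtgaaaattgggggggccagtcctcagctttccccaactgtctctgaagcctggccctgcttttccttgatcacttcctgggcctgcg
Both strands of these windows and of 33469 rat promoter windows of the same length were searched for short motifs. The motif CAAAGTCCA, bound by the hepatocyte nuclear factor Hnf4a, was present in 0.338% of all windows. The element AGGTCA, read by many nuclear receptors, was present in 14.1%, and its direct repeat with 1 base between copies, which contains it, in 0.0508%. The motif AGATAA, bound by Gata4 and its relatives, was present in 10.3%. The last motif, TGACG, the core of the element bound by Creb proteins, was present in 18.2%. In Fabp1 the AGGTCA match lay 77 to 72 bases before the start, and in Fabp2 the AGATAA matches lay 114 to 109 and 66 to 61 bases before it. The Apoa4 and Npc1l1 windows held none of these motifs. In the gene table of the same build, Apoa1, Apoc3, Apoa4 and Apoa5 stand next to one another on chromosome 8.

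Library totals ran from 17.2 M to 19.8 M counts (median 19.1 M), so depth differed little. Library names fall into 3 numbered series: the untreated and oral groups hold 3 libraries each of series 1 and 2, and the injected groups are all series 3 and were compared only with one another. The labels speak of biological replicates and do not say which colon and jejunum libraries came from 1 rat; p-values here measure the spread between libraries. Levels are given as CPM, counts scaled to library size with TMM factors on 1 scale over all libraries. Changes are log2 fold changes from edgeR's quasi-likelihood test, and a gene is called changed at a Benjamini-Hochberg adjusted p under 0.05 over all genes tested. All 9 members passed the filter on low counts in every fit. Gene lengths were not available, so levels are compared between groups and not between genes. The defining genes were checked against the labelled tissues. The summed level of 9 enterocyte genes outside lipid handling was 36691 to 46478 CPM in non-irradiated jejunum and 2028 to 2364 CPM in non-irradiated colon, and that of 4 colonocyte genes was 884 to 1133 CPM in jejunum and 16922 to 20995 CPM in colon. The colonocyte sum was carried by Car1, with a mean of 0.664 CPM in jejunum and 16941 CPM in colon, and Slc26a3, with 271 and 1742 CPM. The other 2 genes went the other way, Aqp8 with 91.6 CPM in jejunum and 5.76 CPM in colon, and Ceacam1 with 659 and 22.0 CPM. Of the 5 listed hepatocyte genes, 4 were in the tables, and their sum was at most 13.0 CPM in any jejunum library of the untreated groups. The share of counts from 37 mitochondrial genes was 8.12% to 24.3% in untreated irradiated jejunum of day 4 and 3.70% to 9.00% at day 7, against 6.27% to 21.8% without irradiation. In colon it was 8.22% to 11.0% at day 4 and 3.28% to 4.89% at day 7, against 10.6% to 14.4% without irradiation.

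Non-irradiated jejunum expressed all 9 genes above non-irradiated colon, Fabp1 by much less than the others. Together they took 5.97% to 7.59% (median 6.78%) of all counts in jejunum libraries and 0.177% to 0.353% (median 0.209%) in colon libraries. All 9 were called higher in jejunum (background: 71.5% of 13741 genes called in either direction, 29.9% higher), and no jejunum library overlapped a colon library for any of them, as for 54% of all genes tested. Apoa4, a lipid-binding protein that the gut secretes after a fatty meal, had 18003 to 33194 CPM (median 23344) in jejunum, against 1.24 to 3.61 CPM (median 2.23) in colon, a log2 difference of 13.26 ± 0.89 (SE). Apob differed by 11.07 ± 0.53 (SE) on the log2 scale, Apoa1 by 10.81 ± 1.07 (SE) and Mttp by 10.69 ± 0.43 (SE). The difference was 9.61 for Npc1l1, 8.73 for Apoc3, 5.68 for Fabp2 and 5.46 for Dgat1. Fabp1 had the smallest difference of the 9: 5765 to 9730.3 CPM (median 7706) in jejunum and 1541 to 2817 CPM (median 1699.7) in colon, a log2 difference of 1.82 ± 0.58 (SE) with an adjusted p of 0.00420. In series 2 alone it was 1.78 and missed the threshold (adjusted p 0.0571). The highest non-irradiated colon library had 5.85 CPM of Apob, 4.81 CPM of Mttp, 3.61 CPM of Apoa4 and 3.79 CPM of Apoc3. The median of all genes lay at -0.21 in this comparison, or -0.12 when the tissues were scaled with size factors in place of TMM.

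After irradiation the jejunum had no called change of these genes at day 4, and had less of 5 of them at day 7. At day 7, Apoa4, Apoc3, Apoa1, Npc1l1 and Dgat1 were lower than in non-irradiated jejunum, by log2 changes of -2.11, -2.42, -1.37, -1.15 and -1.13. Apob, Mttp, Fabp1 and Fabp2 did not pass the test. The members' share of all counts was 4.79% to 11.8% (median 8.16%) in irradiated jejunum at day 4 and 2.06% to 5.83% (median 4.36%) at day 7, against 5.97% to 7.59% (median 6.78%) in non-irradiated jejunum. The background was 58.8% of 12501 genes called at day 7 (27.4% lower), and the median log2 change was -1.13 over the 9 members and 0.02 over all genes tested. In these bulk samples, fewer cells of a type and less RNA per cell cannot be told apart.

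**Figure D1:**
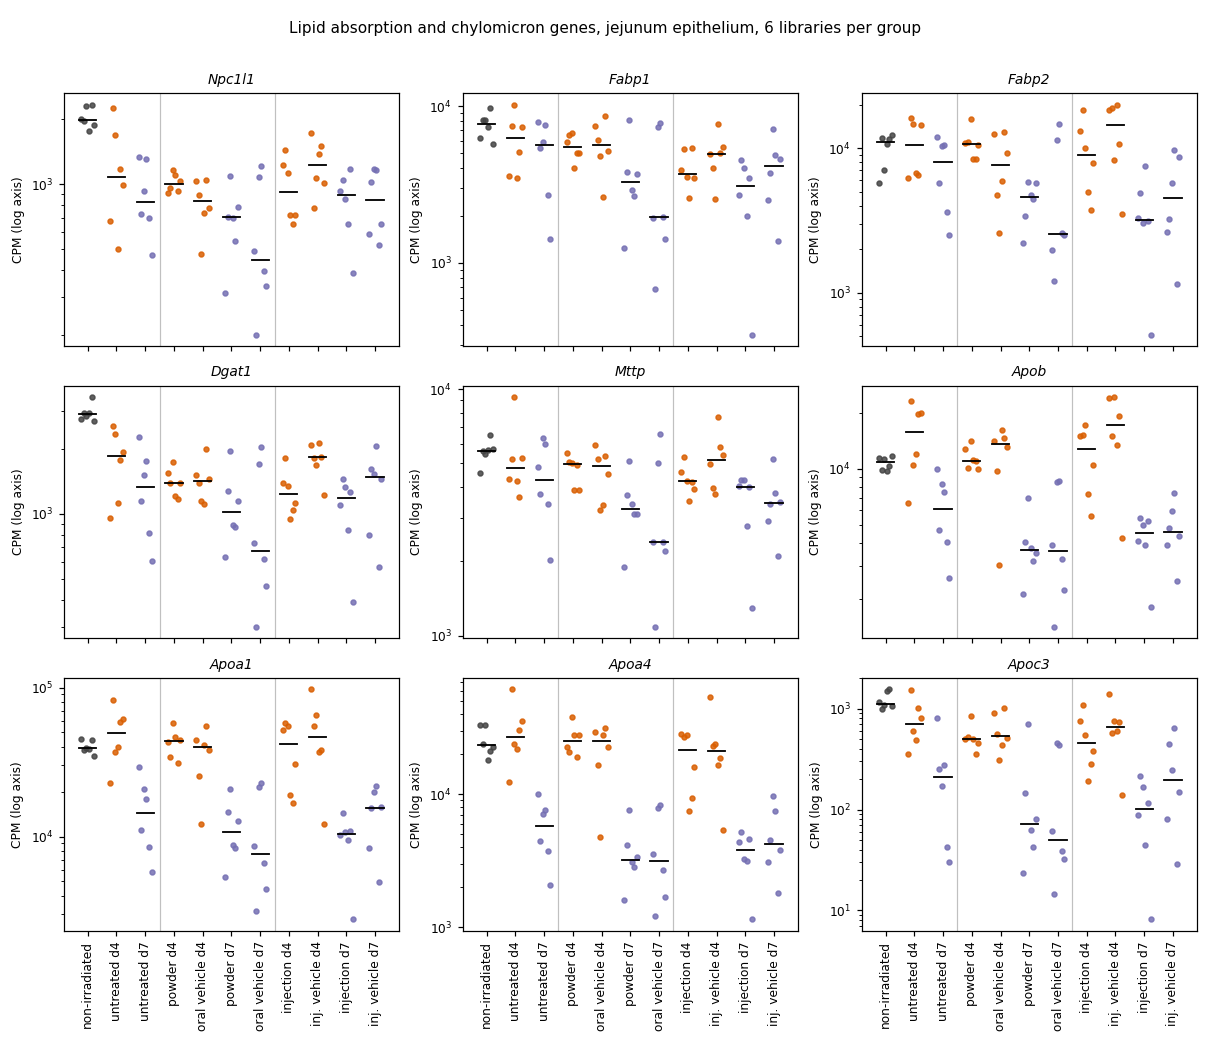
Levels of the 9 genes in jejunum epithelium, CPM on a log axis, 1 point per library and a bar at the median of each group of 6 (grey, non-irradiated; orange, day 4; purple, day 7; vertical lines part the untreated, oral and injected groups). Apoa4 in untreated irradiated jejunum lay between 2073 and 10048 CPM at day 7, below all 6 non-irradiated libraries (18003 to 33194 CPM).

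Npc1l1, the cholesterol transporter, had 502 to 2259.5 CPM (median 1081) in irradiated jejunum at day 4 and 472 to 1338 CPM (median 827) at day 7, against 1756 to 2329 CPM (median 1977) in non-irradiated jejunum. All 6 libraries of day 7 lay below all 6 non-irradiated ones, while at day 4 the library with 2259.5 CPM lay among the non-irradiated values. The day 7 change was -1.15 ± 0.33 (SE) (adjusted p 0.00360), and the day 4 change of -0.75 ± 0.33 (SE) missed the threshold (adjusted p 0.0627). Without the untreated day 4 replicate 2 the day 4 change was -1.01 (adjusted p 0.0131), and without replicate 3 it was -0.84 (adjusted p 0.0485).

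Fabp1 and Fabp2, the cytosolic carriers of fatty acids, did not pass the test at either day. Fabp1 had 3479 to 10185 CPM (median 6242) at day 4 and 1426 to 7885 CPM (median 5646) at day 7 in irradiated jejunum, against 5765 to 9730.3 CPM (median 7706) in non-irradiated jejunum. Its log2 change was -0.30 ± 0.43 (SE) at day 4 and -0.58 ± 0.43 (SE) at day 7 (adjusted p 0.241). Fabp2 had 6203 to 16067 CPM (median 10549) at day 4 and 2494 to 11845 CPM (median 8018) at day 7 in irradiated jejunum, against 5701 to 12318 CPM (median 11098) in non-irradiated jejunum, and a day 7 change of -0.39 ± 0.46 (SE). The groups overlapped for both genes, and the 95% intervals of the day 7 change ran from -1.41 to 0.26 for Fabp1 and from -1.29 to 0.51 for Fabp2.

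Dgat1, which completes triglyceride, had 954 to 2551 CPM (median 1855) at day 4 and 605 to 2276 CPM (median 1336) at day 7, against 2707 to 3483 CPM (median 2892) in non-irradiated jejunum. Every irradiated library of either day lay below every non-irradiated one, as for 9.9% of all genes at day 4. The day 7 change was -1.13 ± 0.33 (SE) (adjusted p 0.00381). At day 4 it was -0.72 ± 0.32 (SE) and not called (adjusted p 0.0674); without the untreated day 4 replicate 2 it was -0.84 (adjusted p 0.0412). At day 4, 0 of the 9 members were called by edgeR, beside 44% of all genes (18.9% lower); 2 of them, Dgat1 and Npc1l1, had an unadjusted p under 0.05, and DESeq2 called 1.

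Neither assembly protein was called. Mttp had 3667 to 9292 CPM (median 4774) at day 4 and 2019 to 6319 CPM (median 4284) at day 7, against 4590.4 to 6508 CPM (median 5637) in non-irradiated jejunum, with a day 7 change of -0.35 ± 0.29 (SE) that was not called. Apob, its partner, had 6574 to 23256 CPM (median 15875) at day 4 and 2575 to 10019 CPM (median 6098) at day 7, against 9751 to 11742 CPM (median 10837). The lowest Apob library of day 7 was replicate 6 and the highest was replicate 1, which lay inside the non-irradiated range. The Apob change of -0.79 ± 0.37 (SE) missed the threshold (adjusted p 0.0662); without day 7 replicate 1 it was -0.97 (adjusted p 0.0297), and DESeq2 called 6 members at day 7, against 5 by edgeR.

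The exchangeable apolipoproteins had the largest changes among the members at day 7. Apoa4 had 12486 to 61693 CPM (median 27200) at day 4 and 2073 to 10048 CPM (median 5769) at day 7 in irradiated jejunum, against 18003 to 33194 CPM (median 23344) in non-irradiated jejunum. Apoa1, the main protein of high density lipoprotein, had 22778 to 82888 CPM (median 49170) at day 4 and 5772 to 29317 CPM (median 14472) at day 7, against 34870 to 45187 CPM (median 39151). Apoc3, an inhibitor of lipoprotein lipase, had 354 to 1524 CPM (median 705) at day 4 and 30.0 to 801 CPM (median 212) at day 7, against 982 to 1557 CPM (median 1125). For all 3 genes the 6 libraries of day 7 lay below all non-irradiated libraries, and at day 4 the ranges overlapped; irradiated libraries of day 4 reached 61693 CPM of Apoa4 and 82888 CPM of Apoa1, both in replicate 2, above any non-irradiated library. The day 7 changes were -2.11 ± 0.44 (SE) for Apoa4 (adjusted p 0.000150), -2.42 ± 0.73 (SE) for Apoc3 (adjusted p 0.00543) and -1.37 ± 0.42 (SE) for Apoa1 (adjusted p 0.00574). The groups did not overlap for any of the 5 called members, as for 26.7% of all genes.

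The day 7 decrease had larger log2 sizes in library series 2, with 3 libraries per group, than in series 1, also 3 per group; the difference between the series was not tested. In series 1 the changes were -2.04 for Apoa4, -1.38 for Apoc3, -1.04 for Npc1l1, -0.98 for Apoa1 and -0.76 for Dgat1, with adjusted p from 0.0562 to 0.324. In series 2 they were -2.22, -3.59, -1.27, -1.88 and -1.53, with adjusted p from 0.00114 to 0.0151. All 5 were negative in both series. Over all genes, 3303 were called in series 1 and 7443 in series 2, against 7352 in all libraries. Of 9 other enterocyte genes outside lipid handling, 3 were called lower at day 4, when no member was called, and 5 at day 7, none higher. The shares of all genes called lower were 18.9% at day 4 and 27.4% at day 7. The summed level of these enterocyte genes was 10291 to 44959 CPM at day 4 and 7197 to 36799 CPM at day 7. In non-irradiated jejunum it was 36691 to 46478 CPM. The sum of 4 genes of dividing crypt cells was 144 to 416 CPM at day 7, against 21.8 to 54.5 CPM, and 4 of 4 were called higher. Their part in the members' change was not tested. With that share of mitochondrial counts added to the fit, the 5 members had adjusted p from 0.000126 to 0.0178.

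Between the irradiated jejuna of day 7 and day 4, Apoa4, Apoa1 and Apob were lower at day 7 in all 5 arms. In untreated rats the log2 changes of day 7 over day 4 were -2.44 ± 0.45 (SE) for Apoa4 (adjusted p 9.53e-05), -1.72 ± 0.42 (SE) for Apoa1 (0.00172), -1.32 ± 0.38 (SE) for Apob (0.00569) and -1.77 ± 0.71 (SE) for Apoc3 (0.0448). That is 4 of 9 members, beside 41% of 12501 genes (20.7% lower). The 2 days did not overlap for Apoa4, as for 7.9% of all genes. The Apoc3 call was lost in 8 of the 12 fits that left out 1 library of the contrast, with adjusted p from 0.0512 to 0.107. In series 1 alone 0 of the 9 were called, beside 166 of all genes, against 5128 in all libraries.

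In the treated arms Apoa4 was also called lower at day 7, and the list of other called members differed a little between arms. With oral powder, day 7 over day 4 gave -2.79 for Apoa4, -1.85 for Apoa1, -1.53 for Apob and -1.29 for Fabp2, 4 members called beside 36.9% of genes, and none of these 4 overlapped between the days (23.9% of all genes). Apoa4 there had 1613 to 7604 CPM (median 3229) at day 7 and 19148 to 37953 CPM (median 25393) at day 4, so its lowest day 4 library lay above its highest day 7 library. With oral vehicle it gave -2.40 for Apoa4, -1.69 for Apoa1, -1.33 for Apob and -1.88 for Apoc3, beside 25.7% of genes. The Apoc3 call there was lost without the count filter (adjusted p 0.0552), with the mitochondrial share in the fit (0.0553), without the series term (0.0523) and in either series alone. With only the groups compared, the calls of Apoa1 (0.0653), Apob (0.0894) and Apoc3 (0.114) were lost. Apoa4 had 1213 to 8295 CPM (median 3138) at day 7 and 4760 to 31638 CPM (median 25199) at day 4, and the days overlapped. With the injection it gave -2.41 for Apoa4, -2.34 for Apoc3, -1.98 for Apoa1, -1.47 for Apob and -1.37 for Fabp2, 5 members beside 41% of genes, and Apoa4, Apoa1 and Apob did not overlap between the days (17.4% of all genes). Apoa4 had 1151 to 5165 CPM (median 3839) at day 7 and 7542 to 28536 CPM (median 21457) at day 4. With the injected vehicle it gave -2.21 for Apoa4, -1.81 for Apoa1, -1.79 for Apob and -1.34 for Fabp2, beside 50.6% of genes. The Fabp2 call there was lost with a replicate block (-1.27, adjusted p 0.0702), without the count filter (0.0627), with only the groups compared (0.0549) and with the mitochondrial share in the fit (0.0957). Apoa4 had 1811 to 9698 CPM (median 4195) at day 7 and 5435 to 53841 CPM (median 21017) at day 4. Mttp, Fabp1, Dgat1 and Npc1l1 were not called between the days in any of the 5 arms. The mitochondrial share differed between the days too, at 6.23% to 9.20% at day 7 and 13.0% to 39.3% at day 4 with the injection, where 1 of the 5 members was called with this share as a covariate. Over all genes, 650 were called with that covariate, against 4988 without it.

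The group medians of the 5 irradiated jejunum arms can be set beside the non-irradiated median, without a test, since the injected arms belong to another library series. The Apoa4 medians were 3138 to 5769 CPM in the day 7 groups and 21017 to 27200 CPM in the day 4 groups, against 23344 CPM in non-irradiated jejunum. Those of Apoa1 were 7649.9 to 15643 CPM in the day 7 groups and 39633 to 49170 CPM in the day 4 groups, against 39151 CPM in non-irradiated jejunum. Apob had medians of 3595 to 6098 CPM in the day 7 groups and 11050 to 17210 CPM in the day 4 groups, against 10837 CPM in non-irradiated jejunum. In these 3 genes every day 4 median lay above every day 7 median. The medians of Apoc3 were 50.2 to 212 CPM in the day 7 groups and 462 to 705 CPM in the day 4 groups, against 1125 CPM in non-irradiated jejunum. Dgat1 had medians of 675 to 1484 CPM in the day 7 groups and 1238 to 1855 CPM in the day 4 groups, against 2892 CPM in non-irradiated jejunum. Those of Npc1l1 were 445 to 894 CPM in the day 7 groups and 833 to 1223 CPM in the day 4 groups, against 1977 CPM in non-irradiated jejunum. All 10 irradiated medians of these 3 genes lay below the non-irradiated one. Fabp1 had medians of 1954 to 5646 CPM in the day 7 groups and 3712 to 6242 CPM in the day 4 groups, against 7706 CPM in non-irradiated jejunum. The medians of Fabp2 were 2548 to 8018 CPM in the day 7 groups and 7599 to 14447 CPM in the day 4 groups, against 11098 CPM in non-irradiated jejunum, and those of Mttp 2391 to 4284 CPM in the day 7 groups and 4224 to 5175 CPM in the day 4 groups, against 5637 CPM in non-irradiated jejunum; all 10 of Fabp1 and of Mttp lay below the non-irradiated median, and those of Fabp2 lay on both sides of it at day 4.

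Ratios of counts within a library are set side by side here for the apolipoproteins, as descriptions with no test. Apoa4 counts per Apob count were 0.805 to 1.01 in irradiated jejunum at day 7 and 1.55 to 2.65 at day 4, against 1.85 to 2.95 in non-irradiated jejunum, so that day 7 lay wholly below the other groups. The ratio was 0.760 to 1.09 at day 7 and 1.74 to 2.81 at day 4 with powder, and 0.7501 to 0.967 at day 7 and 1.57 to 2.17 at day 4 with oral vehicle; in both oral arms the days did not overlap. With the injection it was 0.634 to 1.08 at day 7 and 1.03 to 1.90 at day 4, and with its vehicle 0.728 to 1.64 at day 7 and 0.975 to 2.23 at day 4; in these injected arms the days overlapped. Apoc3 counts per Apoa1 count were 0.00495 to 0.0273 at day 7 and 0.0122 to 0.0184 at day 4, against 0.0259 to 0.0389 in non-irradiated jejunum. At day 4, when neither gene was called, this ratio lay below every non-irradiated library. At day 7 its range overlapped the non-irradiated one. Apoa1 counts per Apoa4 count were 2.29 to 2.94 at day 7 and 1.34 to 1.91 at day 4, against 1.19 to 2.16. Over all groups the highest of 66 jejunum libraries had 4.11 and the lowest of 66 colon libraries 4.83, so the tissues did not overlap in this ratio. The colon ratios divide by few Apoa4 counts and are imprecise for single libraries. Among the colon libraries of injected vehicle at day 4, for example, the lowest Apoa4 level was 0.146 CPM.

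**Figure D2:**
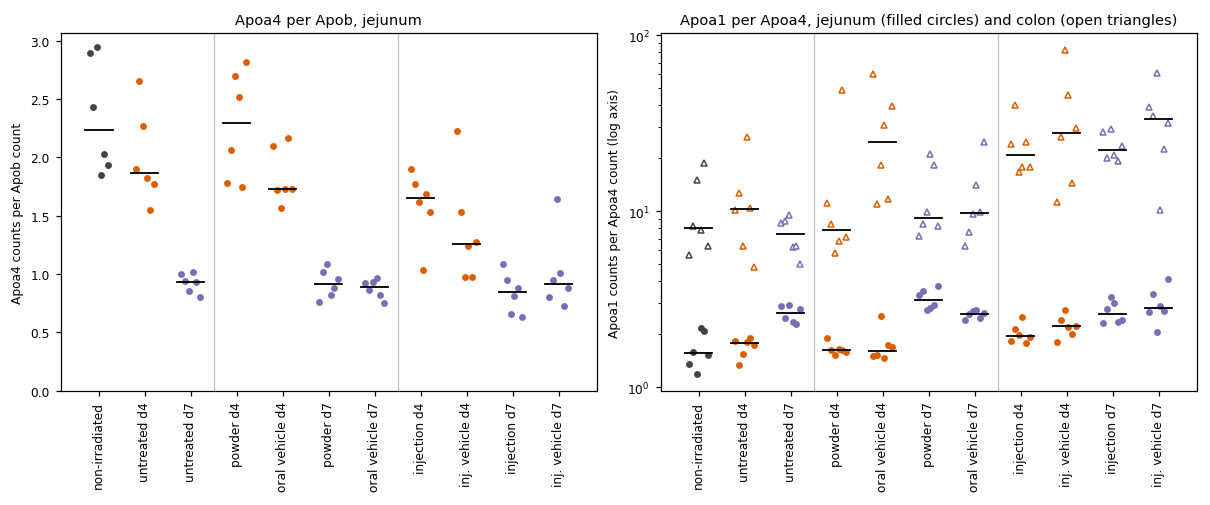
Left, Apoa4 counts per Apob count in jejunum on a linear axis; right, Apoa1 counts per Apoa4 count on a log axis in jejunum (filled circles) and colon (open triangles), 1 point per library and a bar at the median of each group of 6 (grey, non-irradiated; orange, day 4; purple, day 7). Apoa4 per Apob in untreated irradiated jejunum of day 7 stays between 0.805 and 1.01, under the non-irradiated range of 1.85 to 2.95.

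The colon showed another set of changes. Fabp1 was lower than in non-irradiated colon at day 4 and lower still at day 7, while Npc1l1 was higher at both days from a low level. At day 4, 3 members were higher (Npc1l1, Dgat1 and Apoa1) and 2 lower (Fabp1 and Mttp), beside 46.9% of 13306 genes called (24.6% higher, 22.3% lower). At day 7, 2 were higher (Npc1l1 and Apob) and 5 lower (Fabp1, Apoc3, Fabp2, Mttp and Dgat1), beside 63.6% called (32.9% higher, 30.8% lower).

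**Figure D3:**
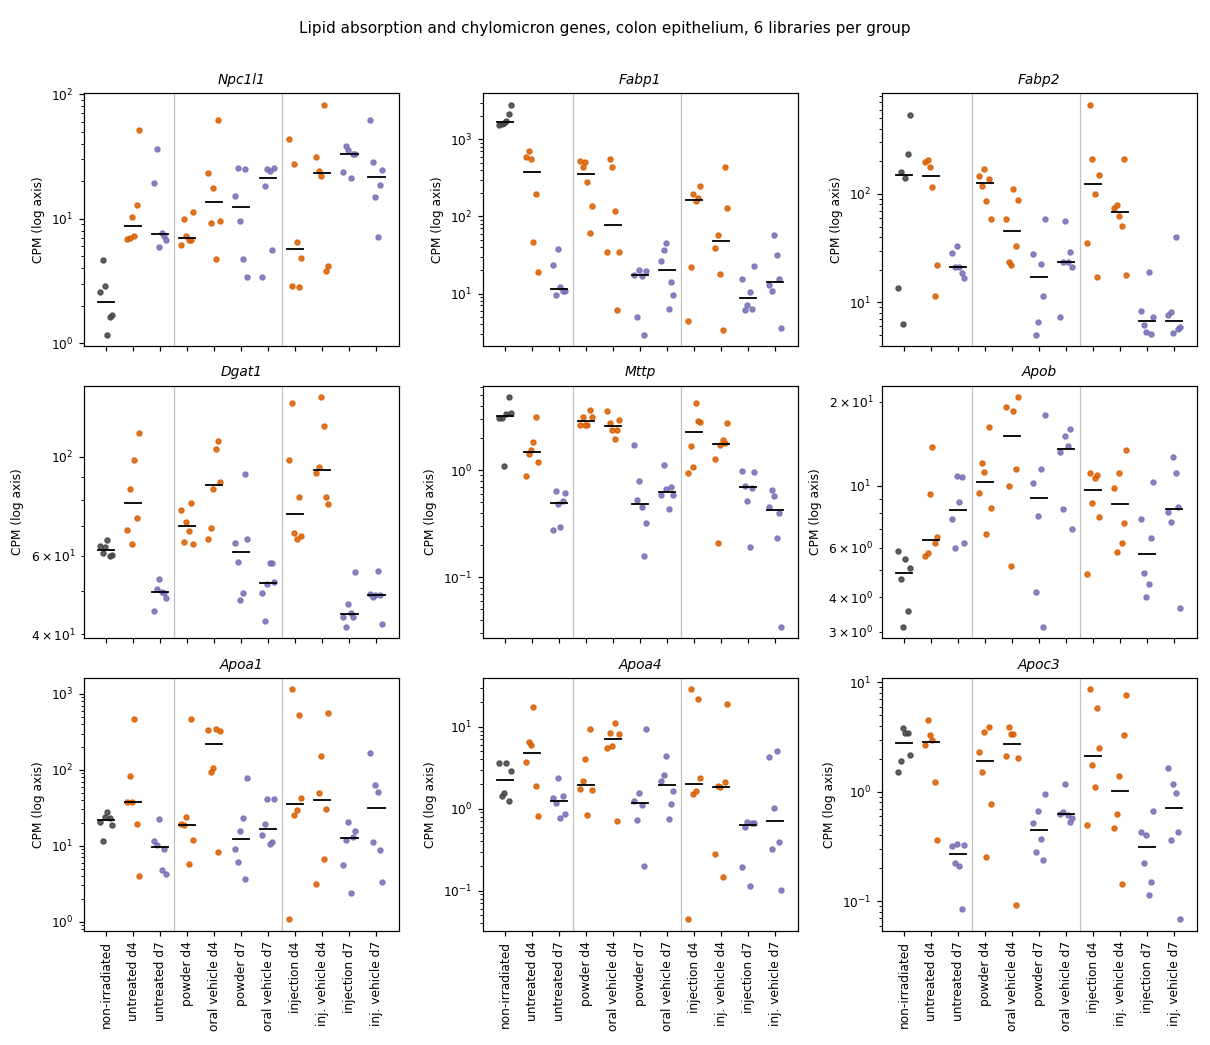
Levels of the 9 genes in colon epithelium, CPM on a log axis, 1 point per library and a bar at the median of each group of 6 (grey, non-irradiated; orange, day 4; purple, day 7; vertical lines part the untreated, oral and injected groups). Fabp1 lay between 9.64 and 37.4 CPM in untreated irradiated colon at day 7, against 1541 to 2817 CPM in non-irradiated colon.

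Fabp1 had 18.9 to 715 CPM (median 380.1) in irradiated colon at day 4 and 9.64 to 37.4 CPM (median 11.4) at day 7, against 1541 to 2817 CPM (median 1699.7) in non-irradiated colon. No irradiated library of either day reached the lowest non-irradiated one, an absence of overlap found in 26.6% of all genes at day 4 and 41.7% at day 7. The log2 change was -3.12 ± 0.69 (SE) at day 4 (adjusted p 0.000469) and -7.15 ± 0.82 (SE) at day 7 (adjusted p 4.31e-09). At day 4 the 3 libraries of series 2 had less of it than the 3 of series 1: the change was -1.35 in series 1 (adjusted p 0.167) and -4.61 in series 2 (0.00270). At day 7 it was -6.09 in series 1 and -7.63 in series 2, so both series had the decrease by then.

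Fabp2, the other carrier, varied widely in non-irradiated colon, where the 3 libraries of series 2 stood above 2 of the 3 of series 1. It had 13.6, 158 and 6.35 CPM in the 3 non-irradiated colon libraries of series 1 and 139, 235 and 539 CPM in those of series 2. In irradiated colon it had 11.5 to 205 CPM (median 146) at day 4 and 16.7 to 33.2 CPM (median 21.2) at day 7. The day 7 change was -2.89 ± 0.75 (SE) (adjusted p 0.00108), though the groups overlapped, and was -1.11 in series 1 and -4.01 in series 2. This call was lost in series 1 alone (adjusted p 0.306) and with the mitochondrial share in the fit (-2.29, adjusted p 0.492). At day 4 the change of -0.45 ± 0.72 (SE) was not called; it was 1.71 in series 1 (adjusted p 0.203) and -2.56 in series 2 (0.0159), opposite in sign. Fabp1 counts per Fabp2 count were 0.453 to 1.13 in irradiated colon at day 7 and 0.408 to 17.2 at day 4, against 5.23 to 259.9 in non-irradiated colon; non-irradiated jejunum had 0.468 to 1.15. The day 7 colon thus overlapped the jejunum range of this ratio, with far fewer counts of both genes.

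Npc1l1 had 6.88 to 51.1 CPM (median 8.81) in irradiated colon at day 4 and 5.91 to 36.1 CPM (median 7.48) at day 7, against 1.18 to 4.65 CPM (median 2.13) in non-irradiated colon. All 12 irradiated libraries lay above all 6 non-irradiated ones. The change was 2.74 ± 0.66 (SE) at day 4 (adjusted p 0.00102) and 2.49 ± 0.64 (SE) at day 7 (0.00110). At day 4 it was 1.27 in series 1 (adjusted p 0.188) and 4.02 in series 2 (0.00633), and without replicate 6, the library with 51.1 CPM, it was 1.89 (0.0114). At day 7 it was 2.28 in series 2 alone and not called (adjusted p 0.0676), and 0.49 with the mitochondrial share in the fit (adjusted p 0.890). Even the highest of these 12 untreated irradiated colon libraries, 51.1 CPM, lay far below the 1756 CPM of the lowest non-irradiated jejunum library.

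Dgat1 was slightly higher at day 4 and slightly lower at day 7. It had 63.9 to 113 CPM (median 78.9) at day 4 and 45.2 to 53.3 CPM (median 49.7) at day 7, against 59.8 to 65.2 CPM (median 61.8) in non-irradiated colon, changes of 0.43 ± 0.12 (SE) (adjusted p 0.00371) and -0.34 ± 0.12 (SE) (0.0135). Every day 7 library lay below every non-irradiated one. The day 4 call was lost in series 1 alone (0.23, adjusted p 0.245) and with the mitochondrial share in the fit (0.38, adjusted p 0.0573). The day 7 call was lost in series 2 alone (-0.32, adjusted p 0.158) and with that share in the fit (-0.48, adjusted p 0.357).

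Mttp, Apob and the exchangeable apolipoproteins had few counts in colon. Mttp had 0.888 to 3.16 CPM (median 1.48) at day 4 and 0.278 to 0.635 CPM (median 0.497) at day 7, against 1.09 to 4.81 CPM (median 3.23); the day 7 libraries held 7 to 17 counts and the non-irradiated ones 23 to 101. The change was -2.74 ± 0.37 (SE) at day 7 (adjusted p 9.45e-08) and -0.90 ± 0.34 (SE) at day 4 (0.0276), where the call was lost without non-irradiated replicate 5 or irradiated replicate 1, 2 or 6, with adjusted p from 0.0523 to 0.0904. Apoc3 had 0.0855 to 0.336 CPM (median 0.271) at day 7, or 2 to 8 counts a library, against 1.51 to 3.79 CPM (median 2.81), or 31 to 80 counts, in non-irradiated colon. Its change was -3.48 ± 0.58 (SE) (adjusted p 3.53e-06), and at day 4 it was -0.21 ± 0.49 (SE) and not called. Apob, in contrast, had 5.98 to 10.9 CPM (median 8.19) at day 7 and 5.59 to 13.8 CPM (median 6.39) at day 4, against 3.13 to 5.85 CPM (median 4.87), changes of 0.84 ± 0.33 (SE) (adjusted p 0.0240) and 0.77 ± 0.33 (SE) (0.0520). The day 7 call was lost without non-irradiated replicate 3 or 5 or irradiated replicate 3 (adjusted p 0.0527 to 0.0646), and at day 4 Apob passed in 4 of the 12 fits that left out 1 library.

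The Apoa1 call of day 4 rested on 1 library. Irradiated colon had 460.4 CPM of Apoa1 in replicate 4 and 3.95 to 83.5 CPM in the other 5, against 11.7 to 28.0 CPM (median 21.9) in non-irradiated colon. The change was 2.21 ± 0.92 (SE) (adjusted p 0.0479) with all libraries and 0.94 (adjusted p 0.400) without replicate 4. The call was also lost without any 1 of the non-irradiated libraries (adjusted p 0.0534 to 0.0872) or without irradiated replicate 2 (0.0666). Apoa4 was highest in the same library, at 17.4 CPM, and its changes of 1.36 ± 0.67 (SE) at day 4 and -0.85 ± 0.69 (SE) at day 7 were not called, nor was that of Apoa1 at day 7 (-0.84 ± 0.91 (SE)).

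Genes of other cells and the mitochondrial share moved with these colon results. The summed level of 4 colonocyte genes was 877 to 9626 CPM at day 4 and 501 to 5470.3 CPM at day 7, against 16922 to 20995 CPM in non-irradiated colon. Car1 carried that fall, with means of 4692 CPM at day 4 and 1458 CPM at day 7, against 16941 CPM; Aqp8 had 21.3 CPM at day 4 and 34.7 CPM at day 7, against 5.76 CPM, and Ceacam1 200 and 192 CPM, against 22.0 CPM. Genes of dividing crypt cells summed to 122 to 184 CPM at day 4 and 310.4 to 505 CPM at day 7, against 64.3 to 164 CPM. Adipocyte genes, which can accompany fat attached to the gut wall, summed to 104 to 216 and 111 to 267 CPM at these days, against 17.9 to 99.3 CPM. Of the 4 tested, 2 were higher at either day, and 1 was lower at day 7. Fabp4 carried most of that sum, with means of 119 and 136 CPM, against 46.8 CPM. Adipoq had 40.3 and 39.6 CPM, against 3.09 CPM. Plin1, Cfd and Lep had means of 0.101, 0.524 and 0.0324 CPM at day 7, below 0.539, 2.85 and 0.325 CPM without irradiation. Macrophage genes summed to 21.2 to 52.7 CPM at day 4 and 21.1 to 61.9 CPM at day 7, against 7.64 to 26.3 CPM, and 4 of 6 were higher at day 4 and 3 at day 7. The 2 ileal genes, Fabp6 and Slc10a2, summed to 0.140 to 90.4 CPM at day 4 and 0.340 to 4.36 CPM at day 7, against 2.58 to 6.83 CPM; Slc10a2 was called higher and Fabp6 lower at day 4. Hepatocyte genes, which mark another tissue rich in apolipoprotein mRNA, summed to at most 0.713 CPM in colon. The part of these cells in the members' changes was not tested. With the mitochondrial share as a covariate 1 of 9 members was called at day 4 and 1 at day 7. Beside them, 2990 and 251 of 13306 genes were called, against 6242 and 8469 without the covariate. At day 7 this share did not overlap between the groups, so that share and irradiation cannot be told apart there.

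Between day 7 and day 4 Mttp was lower at day 7 in the colon of every arm, and the number of other members lower varied by arm. In untreated rats 7 of 9 were lower at day 7, beside 36.5% of genes called: -4.03 for Fabp1, -3.27 for Apoc3, -3.05 for Apoa1, -2.44 for Fabp2, -2.21 for Apoa4, -1.84 for Mttp and -0.77 for Dgat1. Without day 4 replicate 4, the changes were -1.89 for Apoa1 (adjusted p 0.0973) and -1.51 for Apoa4 (0.0841). With the injection 7 were lower too, beside 40.8% of genes: -4.73 for Apoa1, -4.55 for Fabp2, -4.27 for Apoa4, -3.60 for Fabp1, -3.38 for Apoc3, -1.80 for Mttp and -0.94 for Dgat1. With its vehicle 3 were lower (-2.75 for Fabp2, -2.06 for Mttp and -1.05 for Dgat1), beside 27.4% of genes. With powder 4 were lower (-4.26 for Fabp1, -2.52 for Fabp2, -2.21 for Mttp and -2.02 for Apoc3), beside 49.3% of genes, and with oral vehicle 5 (-3.10 for Apoa1, -2.98 for Fabp1, -1.99 for Mttp, -1.85 for Apoc3 and -0.76 for Dgat1), beside 27.4% of genes. Apob and Npc1l1 were called in none of the 5 arms. The differences in these counts between arms were not tested. The mitochondrial share also differed between the days, at 3.28% to 4.89% at day 7 and 8.22% to 11.0% at day 4 in untreated colon. With this share in the fit, 4 members were called untreated, 3 with oral vehicle, 1 with powder and 1 with injected vehicle, and Mttp was no longer called with injected vehicle (-1.39, adjusted p 0.183) or with the injection (-1.38, adjusted p 0.0865). Over all genes, 459 were called untreated, 504 with oral vehicle, 419 with powder and 1057 with injected vehicle in these fits. Without the share they were 4862, 3647, 6558 and 3598.

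**Figure D4:**
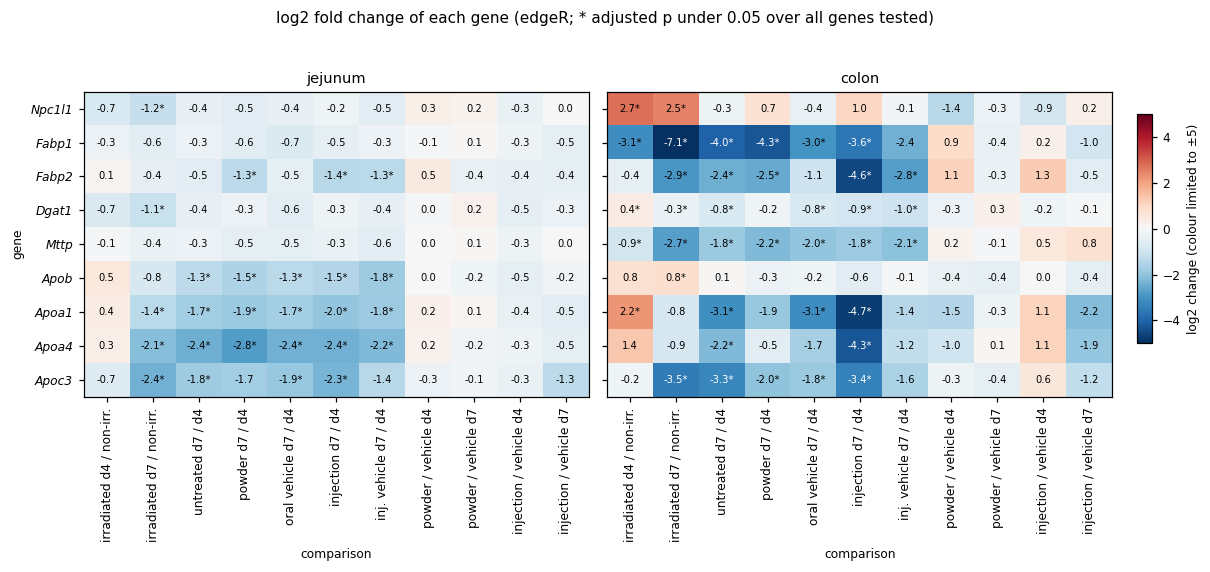
Log2 fold changes of the 9 genes (rows) in 11 comparisons (columns) in jejunum and colon, with red above 0, blue below 0 and an asterisk at an adjusted p under 0.05. The columns of powder or injection over vehicle hold no asterisk, and the jejunum columns of day 7 over day 4 hold one for Apoa4, Apoa1 and Apob in all 5 arms.

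The response to irradiation differed between the tissues for 8 of the 18 pairs of gene and day that were tested as jejunum change minus colon change. At day 4, 3 members differed, beside 21.5% of 13741 genes: Npc1l1 by -3.46 ± 0.71 (SE) (adjusted p 0.000220), Dgat1 by -1.12 ± 0.35 (SE) (0.0165) and Fabp1 by 2.51 ± 0.81 (SE) (0.0199). In series 1 alone 0 of these passed, beside 1605 of all genes, against 2961 in all libraries. At day 7, 5 differed, beside 39.4% of genes. Fabp1, with a difference of 6.43 ± 0.87 (SE), Fabp2, with 2.63 ± 0.84 (SE), and Mttp, with 2.48 ± 0.45 (SE), had a more negative change in colon than in jejunum, where none of the 3 was called. The Fabp2 difference was 1.41 in series 1 alone (adjusted p 0.376) and 1.49 with a block on the library number (adjusted p 0.136). Npc1l1, with -3.55 ± 0.70 (SE), and Apob, with -1.54 ± 0.50 (SE), were higher in irradiated than in non-irradiated colon and had negative changes in jejunum. Apoa4, Apoa1 and Apoc3, which were called lower in jejunum at day 7, did not pass this test: the differences were -1.16 ± 0.82 (SE) for Apoa4, -0.29 ± 1.00 (SE) for Apoa1 and 1.16 ± 0.99 (SE) for Apoc3.

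Neither Kushen preparation was followed by a called change of any member. Powder over oral vehicle and injection over injected vehicle each gave 0 of 9 members in both tissues at both days, by edgeR and by DESeq2. The background was as low in most of these comparisons: 0.008% and 0.008% of all genes for powder in jejunum at day 4 and day 7, and 0% for the injection in jejunum at either day and in colon at either day. In colon, powder gave 0% at day 7 and 11.8% at day 4. At an unadjusted p under 0.05 there were 2 members for powder in colon at day 4, 1 for powder in colon at day 7, and 0 in the other 6 comparisons.

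In jejunum, Apoa4 had 19148 to 37953 CPM (median 25393) with powder and 4760 to 31638 CPM (median 25199) with oral vehicle at day 4, a difference of 0.22 ± 0.43 (SE) with a 95% interval from -0.62 to 1.06. At day 7 it had 1613 to 7604 CPM (median 3229) with powder and 1213 to 8295 CPM (median 3138) with vehicle, a difference of -0.17 ± 0.43 (SE). The groups overlapped at both days. For the injection the Apoa4 difference was -0.26 ± 0.47 (SE) at day 4 (interval -1.18 to 0.66) and -0.46 ± 0.47 (SE) at day 7 (-1.38 to 0.46). The member farthest from 0 was Apoc3 at day 7, with 8.19 to 217 CPM (median 102) with the injection and 29.1 to 649 CPM (median 197) with its vehicle. That difference was -1.29 ± 0.66 (SE), with an interval from -2.60 to 0.01. Over the 9 members the jejunum differences ran from -0.30 to 0.45 for powder at day 4 and from -0.36 to 0.21 at day 7, and from -0.48 to -0.26 for the injection at day 4 and from -1.29 (Apoc3) upwards at day 7. A difference that misses the threshold does not show that the preparations left these genes as they were.

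In colon, Npc1l1 at day 4 had 6.20 to 11.3 CPM (median 7.03) with powder and 4.75 to 62.3 CPM (median 13.6) with oral vehicle, a difference of -1.39 ± 0.60 (SE) with an unadjusted p of 0.0268 and an adjusted p of 0.120. Dgat1 had 63.9 to 78.9 CPM (median 69.9) with powder and 65.4 to 108 CPM (median 86.3) with vehicle at day 4, a difference of -0.28 ± 0.12 (SE) (unadjusted p 0.0234, adjusted 0.111), and 47.8 to 91.4 CPM (median 61.2) against 42.8 to 57.9 CPM (median 52.1) at day 7, a difference of 0.27 ± 0.12 (SE) (unadjusted p 0.0286). The groups overlapped in each of these. Fabp1 in colon at day 4 had 61.9 to 527 CPM (median 360.3) with powder and 6.07 to 554 CPM (median 76.9) with oral vehicle, a difference of 0.92 ± 0.63 (SE) (interval -0.31 to 2.16), and 4.45 to 249 CPM (median 164) with the injection and 3.35 to 440.1 CPM (median 48.5) with its vehicle, a difference of 0.23 ± 0.86 (SE) (-1.45 to 1.92). All of these libraries lay below the lowest non-irradiated colon library, which had 1541 CPM. The oral vehicle itself, set against no drug in irradiated rats, gave 0 of 9 called members in 4 comparisons (background 0% and 0.008% in jejunum, 0% and 0.00752% in colon, at day 4 and day 7). The unadjusted p was under 0.05 for 0 members in jejunum and for 1 at each day in colon, Apob at day 4 (0.86 ± 0.32 (SE)) and Apoc3 at day 7 (1.45 ± 0.58 (SE), with 0.527 to 1.17 CPM with vehicle and 0.0855 to 0.336 CPM without).

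The wider pathway in jejunum was described from 6 lists. Among 13 other genes of chylomicron assembly and transport, 12 were called lower and 0 higher at day 7 over non-irradiated jejunum, with a median log2 change of -0.69, beside 27.4% of all genes lower and a median of 0.02. Prap1, a lipid-binding secreted protein, had 490.5 ± 382 CPM in irradiated jejunum of day 7, against 2498 ± 375 CPM in non-irradiated jejunum (mean ± SD, n = 6 each, as for all levels of this kind), a change of -2.42. Pla2g12b, which takes part in loading lipid onto Apob particles, changed by -1.35, Apobec1, the deaminase that edits Apob mRNA, by -0.78 and Mia3, which helps large cargo leave the endoplasmic reticulum, by -0.67. At day 4 the same list had 1 higher and 2 lower. The higher one was Apoc2, the activator of lipoprotein lipase, with 2899 ± 251 CPM in irradiated jejunum of day 4, against 1577 ± 286 CPM in non-irradiated jejunum, a change of 0.89. Between day 7 and day 4 the list had 0 higher and 6 lower, among them Apoc2 (-1.70), Apobec1 (-1.09) and Apoa5 (-2.47), the last next to Apoa4 on the chromosome and at 2.28 ± 1.85 CPM at day 7, against 12.4 ± 12.8 CPM at day 4.

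The other lists are read beside the shares of all genes in jejunum, which were 31.4% higher and 27.4% lower at day 7 and 25% higher and 18.9% lower at day 4. The uptake list had 2 higher and 5 lower of 8 at day 7, and 2 higher and 3 lower at day 4. Scarb1, a receptor for lipoprotein and sterol, had 163 ± 63.4 CPM in irradiated jejunum of day 7, against 977 ± 143 CPM in non-irradiated jejunum, with changes of -2.59 at day 7 and -1.88 at day 4. The fatty acid transport proteins Slc27a2 and Slc27a4 changed by -2.97 and -1.08 at day 7. Abca1, which exports cholesterol to Apoa1, was higher by 1.61 at day 7 and 1.82 at day 4, from a level under 1 CPM. Of 13 genes of triglyceride and ester synthesis, 2 were higher and 6 lower at day 7, with Gpat3 at -1.17, Lpcat3 at -1.17, Agpat1 at -0.99 and Dgat2 at -0.93, and 1 was higher and 2 lower at day 4. Of 7 genes of lipid droplets and their lipases, 1 was higher and 5 lower at day 7: the monoglyceride lipase Mgll changed by 1.92, and the droplet protein Cidec by -1.73. Of 6 genes of fatty acid activation and binding, 0 were higher and 3 lower at either day. Among 10 transcription factors of absorptive genes, 2 were higher and 3 lower at day 7, with Ppara at 1.24 and Nr1h3 at -0.98, and 0 were higher and 4 lower at day 4, when Hnf4a, a main regulator of enterocyte genes, changed by -0.70.

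In colon the wider lists had calls in both directions, beside 32.9% of all genes higher and 30.8% lower at day 7, and 24.6% higher and 22.3% lower at day 4; shares near these are no result about a list. Of 11 tested chylomicron genes, 4 were higher and 1 lower at day 7, and 4 higher and 0 lower at day 4; Pla2g12b changed by 2.43 at day 7, with 1.19 ± 0.614 CPM in irradiated colon of day 7, against 0.218 ± 0.101 CPM in non-irradiated colon. Of 13 genes of triglyceride and ester synthesis, 5 were higher and 1 lower at day 7, with Gpat3 at 1.29. Slc27a2, a fatty acid transport protein, had 0.660 ± 0.443 CPM in irradiated colon of day 7, against 34.1 ± 14.5 CPM in non-irradiated colon, a change of -6.26. Acsl5, an acyl-CoA synthetase of the gut, was higher by 1.25 at day 7 and 1.30 at day 4. Of 7 droplet genes 2 were higher and 4 lower at day 7, with Cideb at 2.31 and Mgll at -1.78, the opposite sign of each in jejunum at that day, where Cideb was -0.90 and Mgll 1.92; this difference was not tested. Among 9 transcription factors 2 were higher and 5 lower at day 7, with Ppara at -2.58, Cdx2 at -0.71 and Hnf4g at 1.33. In non-irradiated tissue, jejunum over colon, the chylomicron list had 12 higher and 0 lower of 13, the uptake list 7 and 1 of 8, and the synthesis list 11 and 2 of 13, beside 29.9% of all genes higher. Powder over oral vehicle in colon at day 4 gave 0 higher and 4 lower of 13 synthesis genes and 1 higher and 3 lower of 11 chylomicron genes, beside 11.8% of all genes called.

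Across the 66 jejunum libraries, the genes whose log2 levels ran most like each member were found among 9198 genes by Pearson's r, given as a description; the libraries share groups and series. For Apoa1 they were Aqp7 (0.987), Slc39a8 (0.979) and Apoa4 (0.978), and for Apoa4 they were Aqp7 (0.983), Src (0.979) and Apoa1 (0.978). For Apob they were Apoa1 (0.971), Aqp7 (0.971) and Susd2 (0.969). The members Apoa1, Apoa4 and Apob thus stood near one another, with the same gene, Aqp7, among the nearest of all 3. Apoc3 ran with Amn (0.977), Prap1 (0.977) and Cyp2j4 (0.975), and Dgat1 with Slc52a2 (0.975), Tcn2 (0.974) and Slc27a4 (0.973). Mttp ran with P4hb (0.954), Rbp2 (0.938) and Fabp1 (0.928); P4hb encodes the partner subunit of the transfer protein. Fabp1 ran with Qprt (0.956), Thnsl2 (0.955) and Acsf2 (0.953), of which Thnsl2 is its neighbour in the gene table. Npc1l1 ran with Cyp4f6 (0.941), Ppp2r5c (0.940) and C2cd2l (0.933), and Fabp2 with Hsd17b11 (0.891), Cyp3a18 (0.881) and a gene listed by a clone name only (0.873).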

How the data were processed

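RNA sequencing of epithelium gave 132 libraries (total RNA, paired reads of 150 bp). The deposited values are raw read counts per gene in 2 tables with 168 library columns; 36 libraries stand in both, with identical values, and were used once. Reads were aligned with STAR 2.7.10a to mRatBN7.2, per the submitters' processing notes; the read counter, annotation and strandedness were not given in the sources used here, so reads of overlapping antisense genes cannot be told apart.

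The counts were tested with edgeR 4.0.16 (quasi-likelihood F test, TMM, filterByExpr by group, R 4.3.3, limma 3.58.1) and Benjamini-Hochberg adjustment over all genes tested. Untreated and oral groups of a tissue shared a fit of 42 libraries with library series as a term (12501 genes in jejunum, 13306 in colon). Injected groups shared one of 24 (12180 and 13144 genes), and tissue comparisons used 84 libraries of both tissues (13741 genes). The procedure was first tested on simulated counts. The edgeR test gives no standard error, so each SE is the absolute log2 change divided by the square root of its F statistic. Intervals of 95% are normal approximations from this approximate SE.

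The members and gene lists were chosen with earlier results of these data known. Named genes were all members, the 4 called genes per list with the smallest p, and the 3 genes most like each member over 66 jejunum libraries. Alternatives were DESeq2 1.42.0, size factors in place of TMM, no filter, only the groups compared, no series term, each series alone, a mitochondrial covariate, a replicate block and, chosen after seeing the data, leaving out each library of 6 comparisons. Promoters came from RefSeq (GRCr8).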

Additional observations from a re-analysis of the deposited data

Results flagged for a closer look

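In 24 of the 198 sets of 1 gene and 1 group, 1 library stood apart from its other 5 by a Dixon gap test on the CPM scale. Chance passes this test in about 1 of 20 sets of normal values; the rate for skewed levels like these was not measured, and in all 24 the library was the highest of its group.

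Apoa1 in colon had the most such libraries in 1 tissue. Untreated irradiated colon at day 4 had 460.4 CPM, against 3.95 to 83.5 CPM in its other 5 libraries (replicate 4). Powder gave 459.9 CPM, against 5.73 to 23.6 CPM in its other 5 libraries at day 4 (replicate 5), and 78.7 CPM, against 3.64 to 23.4 CPM in its other 5 libraries at day 7 (replicate 6). Injected vehicle gave 565 CPM, against 3.18 to 151 CPM in its other 5 libraries at day 4 (replicate 6), and 168 CPM, against 3.30 to 63.0 CPM in its other 5 libraries at day 7 (replicate 1). Apoa4 stood apart in 3 of these 5 libraries, with 17.4 CPM, against 0.818 to 6.57 CPM in its other 5 libraries untreated at day 4, 9.49 CPM, against 0.198 to 1.58 CPM in its other 5 libraries with powder at day 7, and 19.0 CPM, against 0.146 to 2.14 CPM in its other 5 libraries with injected vehicle at day 4. All of these levels lay below the lowest of any non-irradiated jejunum library.

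Npc1l1 in colon at day 4 had 51.1 CPM, against 6.88 to 12.8 CPM in its other 5 libraries untreated (replicate 6), 62.3 CPM, against 4.75 to 23.1 CPM in its other 5 libraries with oral vehicle (replicate 5), and 82.0 CPM, against 3.78 to 31.3 CPM in its other 5 libraries with injected vehicle (replicate 4).

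The fatty acid carriers stood apart mostly in injected colon. Replicate 5 of injected vehicle at day 4 had 440.1 CPM, against 3.35 to 131 CPM in its other 5 libraries for Fabp1, and 209 CPM, against 18.0 to 80.0 CPM in its other 5 libraries for Fabp2. For Fabp2, replicate 2 with the injection had 664 CPM, against 17.2 to 209 CPM in its other 5 libraries at day 4, and replicate 4 had 19.2 CPM, against 5.16 to 8.34 CPM in its other 5 libraries at day 7; replicate 4 with injected vehicle had 40.4 CPM, against 5.25 to 8.08 CPM in its other 5 libraries at day 7.

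Replicate 3 of powder-treated jejunum stood apart for 2 genes at each day; the days are separate samples. At day 4 it had 852 CPM, against 351 to 529 CPM in its other 5 libraries for Apoc3, and 15928 CPM, against 8347 to 10978 CPM in its other 5 libraries for Fabp2. At day 7 it had 709 CPM, against 23.7 to 145 CPM in its other 5 libraries for Apoc3, and 8171 CPM, against 1252 to 3789 CPM in its other 5 libraries for Fabp1. Elsewhere, Apoc3 had 801 CPM, against 30.0 to 276 CPM in its other 5 libraries in untreated jejunum at day 7 (replicate 1), and 1.17 CPM, against 0.527 to 0.656 CPM in its other 5 libraries in colon with oral vehicle at day 7 (replicate 3). Mttp had 9292 CPM, against 3667 to 5247 CPM in its other 5 libraries in untreated jejunum at day 4 (replicate 3), and Dgat1 had 3483 CPM, against 2707 to 2947 CPM in its other 5 libraries in non-irradiated jejunum (replicate 5).

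The response to irradiation differed between jejunum and colon by edgeR's test of the difference itself. On the log2 scale, jejunum minus colon was 2.51 for Fabp1, -1.12 for Dgat1 and -3.46 for Npc1l1 at day 4. At day 7 it was 6.43 for Fabp1, 2.63 for Fabp2 (1.49 and not called, adjusted p 0.136, with a block on the library number), 2.48 for Mttp, -1.54 for Apob and -3.55 for Npc1l1.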

How the results depend on the processing

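No called result changed sign under any alternative that gave it an adjusted p. Size factors in place of TMM lost none of 81 called member results. DESeq2 lost none of the 78 to which it gave an adjusted p, and it gave none to the rest. In untreated colon of day 7 over day 4, DESeq2 called 6 members, against 7 by edgeR. Calls were lost in 29 of 62 with series 1 alone, 17 of 62 with series 2 alone, 28 of 81 with the mitochondrial share as a covariate, 5 of 81 without the count filter, 5 of 80 with only the groups compared, and 3 of 62 without the series term. Series alone hold 3 libraries per group; otherwise the cause was not tested.

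The larger moves in the number of members called were as follows. Small moves are left out, such as 5 under DESeq2, against 4 by edgeR, for jejunum of day 7 over day 4 with injected vehicle. For irradiated over non-irradiated jejunum at day 4 (0 by edgeR) it was 1 under DESeq2, with only the groups compared, with the covariate and in series 2 alone. In series 1 alone it was 0 for jejunum at day 7 (5 in all libraries), 0 for jejunum of day 7 over day 4 untreated, with oral vehicle and with powder (4 each), 1 for irradiated colon at day 4 (5), 0 for the tissue difference at day 4 (3) and 3 for that at day 7 (5). All genes called fell there too, in the same order from 7352 to 3303, 5128 to 166, 3210 to 105 and 4614 to 740. For colon at day 4 they fell from 6242 to 2115, and for the tissue differences from 2961 to 1605 and 5418 to 3943. In series 2 alone it was 4 for irradiated colon at day 7 (7), and for colon of day 7 over day 4 it was 3 untreated (7), 2 with oral vehicle (5) and 2 with powder (4). All genes called fell in the same order from 8469 to 6078, 4862 to 3022, 3647 to 98 and 6558 to 1809. With the covariate it was 1 for jejunum of day 7 over day 4 with the injection (5), 1 for irradiated colon at day 4 (5) and 1 at day 7 (7). For colon of day 7 over day 4 it was 4 untreated (7), 3 with oral vehicle (5), 1 with powder (4) and 1 with injected vehicle (3). All genes called fell in each of these, in the same order from 4988 to 650, 6242 to 2990 and 8469 to 251. In colon of day 7 over day 4 they fell from 4862 to 459, 3647 to 504, 6558 to 419 and 3598 to 1057. With only the groups compared it was 1 for jejunum of day 7 over day 4 with oral vehicle (4). All genes called fell there from 3210 to 1445.

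Leaving out 1 library gave 0 to 2 for irradiated jejunum at day 4, 5 to 6 at day 7 and 3 to 4 for untreated day 7 over day 4. In colon it gave 3 to 6 at day 4, 6 to 7 at day 7 and 5 to 7 for day 7 over day 4.

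Whether replicate numbers pair the libraries was not settled here. Same-numbered libraries of different groups correlated above 0.1 in 37 of 126 pairs of the oral jejunum fit and 41 of 126 of the oral colon fit. In the injected fits it was 10 of 36 in jejunum and 8 of 36 in colon. The median correlations were 0.0147, 0.0224, -0.0178 and -0.0928 in these fits. Differently numbered pairs had -0.000377, -0.00417, 0.00181 and 0.0132. Same-numbered oral libraries also share a library series. A replicate block lost 2 of 64 calls, Fabp2 with injected vehicle in jejunum of day 7 over day 4 (-1.27, adjusted p 0.0702) and Apoa1 in irradiated colon at day 4 (2.21, adjusted p 0.0722). Libraries of the 2 tissues that carry 1 number correlated above 0.1 in 26 of 66 pairs, and a block on that number lost the day 7 tissue difference of Fabp2 (1.49, adjusted p 0.136). Colon counts of Apoc3 and Mttp at day 7 were few, which limits the precision of their changes.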
